A study of Mus musculus with 12 samples.

Results

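The comparison set 3 RNA-seq libraries titled hippocampus CD51+ astrocyte against 3 titled hippocampus CD51− astrocyte. These are 6 of the 12 libraries of the series, the other 6 being the same classes from cortex. All genes that passed a filter on low counts were tested, 12613 of 55401. The cells came from mice that carry CD51-Flp and Rosa-CAG-FSF-tdTomato. In such mice a Flp recombinase expressed under CD51, the integrin alpha-v chain, removes a stop cassette and switches on the red reporter tdTomato from the ubiquitous Rosa locus. Cells with tdTomato and GFP were sorted as CD51+, and cells with GFP but no tdTomato as CD51−. Both classes carry the same alleles and both are GFP+. The promoter that drives GFP, and the age and number of the animals, are not given in the sources used here. A recombined cell keeps tdTomato after CD51 expression ends, so the class records past as well as present expression. The replicates are not said to come from separate animals, and p-values then measure only the spread between these samples, which may be technical.

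Astrocytes of the hippocampus clear glutamate and potassium from around synapses, hold water and ion balance through channels and pumps at their fine processes, and couple to one another through gap junctions. Integrins that contain the alpha-v chain bind matrix proteins and release active TGF-beta from its latent complex. Immediate early genes such as Fos and Egr1 and genes under NF-kappa-B such as Ccl3 and Tnfaip3 are switched on within minutes to hours of a stimulus in many cell types, the former in neurons and the latter in microglia and macrophages among them, and enzymatic dissociation of brain tissue is known to induce them.

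The libraries labelled CD51+ held 4351897 to 9458664 counts and those labelled CD51− held 7246952 to 8588717. Fewer genes had a count in CD51+ (12894 to 13143) than in CD51− (14907 to 15425). Mitochondrial genes took 49.9% to 53.3% of the counts in CD51+ and 20.2% to 29.4% in CD51−. The rank correlation (Spearman) across genes was 0.675 to 0.708 between CD51+ libraries, 0.628 to 0.656 between CD51− libraries and 0.442 to 0.54 across the classes. Single genes varied strongly between replicates: 4.79% of the genes that reached 50 CPM (counts per 1000000 of the scaled library size) in a CD51+ library lay under 1 CPM in another, and 5.72% in CD51−. Data of 12613 genes were simulated with 200 genes changed, 50 at each size. The test for this comparison recovered none of the 2-fold or 4-fold changes, 12% of those of 3 log2 units and 38% of those of 4. Other numbers of changed genes were not simulated, and the libraries themselves gave calls from 1.63 log2 units up. A gene that was not called may still differ.

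Itgav, the gene of CD51 itself, did not separate the labelled classes. Itgav, on chromosome 2, gave CD51+ values of 374, 323 and 412 CPM and CD51− values of 223, 565 and 356 CPM. The groups overlapped, with a change of -0.04 ± 0.55 log2 units (SE) and an adjusted p of 0.984 (edgeR quasi-likelihood test). Permuting the 6 libraries exactly, on both sides, gave p = 0.9, and 3 against 3 libraries cannot go below 0.1. None of the 5 tested genes of alpha-v and its beta partners was called by edgeR, DESeq2 or limma-voom, and 1 had an unadjusted p under 0.05. Itgb8, whose product pairs with alpha-v on astrocytes, was at 257, 421 and 269 CPM against 140, 151 and 36 CPM, without overlap (log2 fold change 1.54 ± 0.64 SE; edgeR adjusted p = 0.185). Library names carry G where titles say CD51+ and GT where they say CD51−, and G and GT could stand for the reverse assignment. Every direction below follows the titles and would flip if the titles were exchanged.

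The classes differed at 418 genes, 3.31% of those tested (edgeR quasi-likelihood test, Benjamini-Hochberg adjusted p under 0.05): 78 were higher in the libraries labelled CD51+ (0.618%) and 340 lower (2.7%). The smallest change called was 1.63 log2 units, and the median over all tested genes was -0.22. The libraries of the classes did not overlap at 415 of the 418 genes, and over all tested genes they did not overlap at 3423 (27.1%). Of the 340 lower genes, 163 lay under 1 CPM in every CD51+ library and 75 of them had no count there. Of the 78 higher genes, 9 had no count in CD51−. Median exon length differed little, at 4584.5 bases for the higher genes, 4347 for the lower and 4548 for all tested genes. Other tools called more genes (DESeq2 1429, limma-voom 885), and leaving out CD51+ replicate 1 or replicate 2 gave 269 or 198 calls, of which 255 and 183 were among the 418. In bulk libraries, fewer cells of a type and less RNA per cell cannot be told apart.

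**Figure D1:**
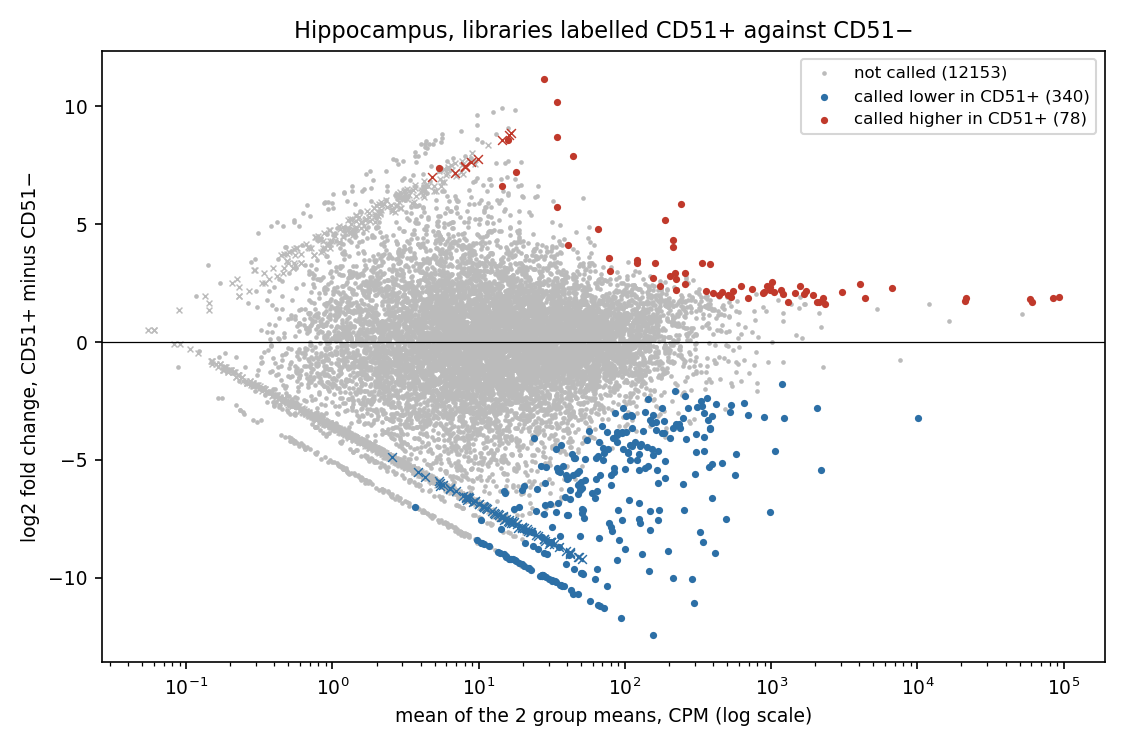
Each point is a tested gene, with the mean of the 2 group means in CPM on a log scale (x axis) against the log2 fold change of libraries labelled CD51+ minus CD51− (y axis); crosses are genes with no count in a group, drawn at their bound from a floor of 3 counts, and 42 genes at or under the floor in both groups are left out. The 78 higher calls include 9 drawn at their bound, and the 340 lower calls 75.

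Many genes that define astrocytes were at higher levels under the CD51+ label. Of 20 tested core astrocyte markers, 9 were called higher (Slc1a2, Slc1a3, Gja1, Aldoc, Fgfr3, Atp1b2, Ntsr2, Slc4a4 and Acsbg1) and none lower, the median log2 fold change was 2.04, and 18 were higher without overlap (over all tested genes, 10.5% were). Their summed level ran from 44221 to 56540 CPM in CD51+ and from 13029 to 15446 CPM in CD51−, so the libraries labelled CD51− also held astrocyte RNA. Glul, which encodes the glutamine synthetase that converts captured glutamate, was at 3114, 3669 and 3810 CPM in CD51+, against 939, 1341 and 1152 CPM in CD51−. Glud1, the mitochondrial enzyme that oxidises glutamate, was at 1192, 2004 and 1939 against 284, 555 and 335 CPM. Neither gene overlapped between the classes, and the log2 fold changes were 1.63 ± 0.39 (SE) for Glul and 2.13 ± 0.53 for Glud1 (edgeR adjusted p = 0.0201 and 0.0238). In the list of 15 glutamate genes 4 were called higher and 1 lower, with a median of 1.7, or 0.82 without CD51+ replicate 2.

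In the list of 12 GABA genes 2 were called higher and none lower. Slc6a11, the GABA transporter GAT3 of astrocytes, was at 733, 969 and 393 CPM in CD51+, against 56.0, 51.4 and 103 CPM in CD51− (log2 fold change 3.31 ± 0.81 SE; edgeR adjusted p = 0.022). Gabbr2, a subunit of the GABA-B receptor, was at 71.6, 263 and 45.2 CPM against 0.0821, 12.4 and 1.18 CPM (4.8 ± 1.24; adjusted p = 0.031). Both genes were low in every CD51− library, and the median of the list was 1.5, or 2.31 without CD51− replicate 2. Among 12 receptors for neuromodulators and peptides, Ntsr2, a neurotensin receptor, was at 324, 440 and 401 CPM against 79.2, 53.2 and 19.4 CPM. Adcyap1r1, the receptor for the peptide PACAP, was at 131, 236 and 292 CPM against 4.43, 13.4 and 46.3 CPM. Both were called higher (log2 fold changes 2.94 ± 0.74 and 3.36 ± 0.86 SE; edgeR adjusted p = 0.0258 and 0.0305). The list held 1 call in the lower direction.

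Genes of potassium, sodium and bicarbonate transport gave 4 higher calls and no lower call of 15 tested, with a median log2 fold change of 1.91. Atp1b2, a beta chain of the sodium-potassium pump, was at 1649, 2309 and 1814 CPM against 423, 460 and 539 CPM. Every CD51+ library lay above every CD51− library, and the fitted difference was 2.02 ± 0.5 log2 units (SE; edgeR adjusted p = 0.0236). Slc4a4, the sodium bicarbonate cotransporter, was at 1260, 2397 and 1491 CPM against 376, 363 and 146 CPM. Kcnj10, the inward rectifier Kir4.1 that takes up potassium, was at 591, 1082 and 847 CPM against 361, 135 and 173 CPM. Both were called higher (edgeR adjusted p = 0.0266 and 0.0483), and Aqp4, the water channel, was not, at 1269, 2286 and 1655 CPM against 404, 766 and 339 CPM (1.79 ± 0.52; adjusted p = 0.0558). Gja1, the main astrocyte connexin, was the 1 gene called of 6 gap junction and associated genes, at 515, 519 and 903 CPM against 191, 161 and 104 CPM (2.08 ± 0.54; adjusted p = 0.033).

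Genes of synaptic adhesion and of the matrix around synapses were also among the higher ones. Nlgn2, the neuroligin of inhibitory synapses, was at 27.1, 18.9 and 156 CPM against 0.246, 1.58 and 1.9 CPM (5.75 ± 1.56; adjusted p = 0.0421), with CD51+ replicate 3 far above the other two. Of 15 synaptic adhesion genes 2 were called higher and none lower (median 1.83). Ncan, the chondroitin proteoglycan neurocan, was the 1 call of 15 matrix genes, at 2306, 3222 and 2391 CPM against 416, 576 and 533 CPM (2.38 ± 0.57; adjusted p = 0.0194). Aldoc, the astrocyte aldolase, was the 1 call of 20 genes of glycolysis and glycogen, and Fgfr3 the 1 higher call of 14 FGF and EGF pathway genes. Aldoc, Fgfr3, Gja1, Atp1b2, Slc4a4 and Ntsr2 belong to the core astrocyte list too. Their calls thus count again in the glycolysis, FGF, gap junction, ion transport and receptor lists and are not separate results.

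The higher genes with the largest changes lay outside the core astrocyte list. Apba2, an adaptor that binds the amyloid precursor protein (chr7:64501706-64753878, mm10, plus strand), was at 101, 94.99 and 66 CPM in CD51+, against 0.329, 0.65 and 0.0906 CPM in CD51− (log2 fold change 7.88 ± 1.47 SE; edgeR adjusted p = 0.0026). Efemp1, which encodes the matrix protein fibulin-3, was at 26.4, 67.5 and 14.1 CPM against 0.493, 0.0929 and 0.0906 CPM (7.21 ± 1.78; adjusted p = 0.0234). Shisa9, an accessory protein of AMPA receptors, was at 11.2, 48.8 and 26.1 CPM against 0, 0.836 and 0 CPM (6.63 ± 1.73; adjusted p = 0.0333). All 3 were close to absent from CD51−. Astn2, the neuron-glia adhesion protein astrotactin 2, had no count in CD51− and 24.3, 23.5 and 5.03 CPM in CD51+, at least 198-fold higher against a floor of 3 counts over the group (edgeR adjusted p = 0.0269). Fam69c behaved alike, with 26.6, 16.1 and 5.86 CPM and no count in CD51−, at least 173-fold higher (adjusted p = 0.0353).

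Other higher genes kept a level in CD51−. Kcnq3, a subunit of the M-type potassium channel, was at 643, 468 and 105 CPM in CD51+, against 19.4, 29.8 and 11.3 CPM in CD51− (log2 fold change 4.33 ± 0.9 SE; edgeR adjusted p = 0.00732). Papss2, which makes the sulphate donor for proteoglycans, was at 506, 399 and 290 CPM against 5.995, 23.4 and 44.2 CPM (4.02 ± 0.94; adjusted p = 0.0161). Mfap3l, a membrane protein, was steady within each class, at 532, 531 and 773 CPM against 53.1, 65.5 and 62.0 CPM (3.35 ± 0.58; adjusted p = 0.00134). Cyp2j9, a cytochrome P450, was as steady, at 181, 216 and 264 CPM against 21.8, 15.9 and 22.0 CPM (3.47 ± 0.73; adjusted p = 0.00732). Cxcl14, a chemokine, was at 164, 156 and 112 CPM against 9.61, 17.8 and 9.06 CPM (3.56 ± 0.94; adjusted p = 0.036), and Sorl1, a sorting receptor of endosomes, at 223, 461 and 198 CPM against 18.5, 37.8 and 29.0 CPM (3.37 ± 0.85; adjusted p = 0.0259). Apln, which encodes the peptide apelin, was at 47.7, 124 and 61.0 CPM against 9.77, 1.02 and 2.45 CPM (4.13 ± 1.16; adjusted p = 0.0495). Cap2, an actin regulator, rested mostly on CD51+ replicate 3, with 46.6, 124 and 921 CPM against 6.82, 2.69 and 20.8 CPM (5.17 ± 1.36; adjusted p = 0.035).

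Many of the higher calls did not hold when a library was left out. Without CD51+ replicate 2 only 1 of the 20 core astrocyte markers was called, and without the other libraries, 1 at a time, 3 to 8 were. Of the 4 higher calls of the potassium list 1 was left without CD51+ replicate 2 or CD51− replicate 2 and 2 without either replicate 3, and of the 4 of the glutamate list 1 was left without CD51+ replicate 2 or 3 or CD51− replicate 1 or 3. Slc1a2 lost its call under limma-voom (adjusted p = 0.417). The calls of Glul and Glud1 ended without CD51+ replicate 2 or 3 or CD51− replicate 1 or 3 (highest edgeR adjusted p 0.0905 and 0.0927). Slc6a11 lost its call without CD51+ replicate 2 or CD51− replicate 1 or 2, Gabbr2 without CD51+ replicate 2 or CD51− replicate 3, with robust dispersion or with the hippocampal libraries alone, and Ncan without CD51+ replicate 2 or CD51− replicate 1. Nlgn2 and Cap2 lost theirs without CD51+ replicate 3 or CD51− replicate 1 or 2, and both under limma-voom; Nlgn2 also without CD51− replicate 3 or cortical CD51+ replicate 3, and Cap2 with robust dispersion (highest adjusted p 0.219 and 0.215). Ntsr2, Adcyap1r1, Atp1b2, Slc4a4, Kcnj10, Gja1, Fgfr3, Aldoc, Slc1a3, Acsbg1, Astn2, Fam69c, Efemp1, Shisa9, Apln, Papss2, Cxcl14, Cyp2j9 and Sorl1 each lost the call without at least 1 library, at adjusted p up to 0.208. Apba2, Mfap3l, Kcnq3 and Sparcl1 were called under all 18 alternatives. Sparcl1, outside the core astrocyte list, was at 8714, 12445 and 12418 CPM in CD51+, against 2599, 2399 and 1898 CPM in CD51−. For this gene the classes lay 2.28 ± 0.38 log2 units apart (SE), and edgeR gave 0.000967 as the adjusted p. Among the alternatives its adjusted p reached at most 0.00267.

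**Figure D2:**
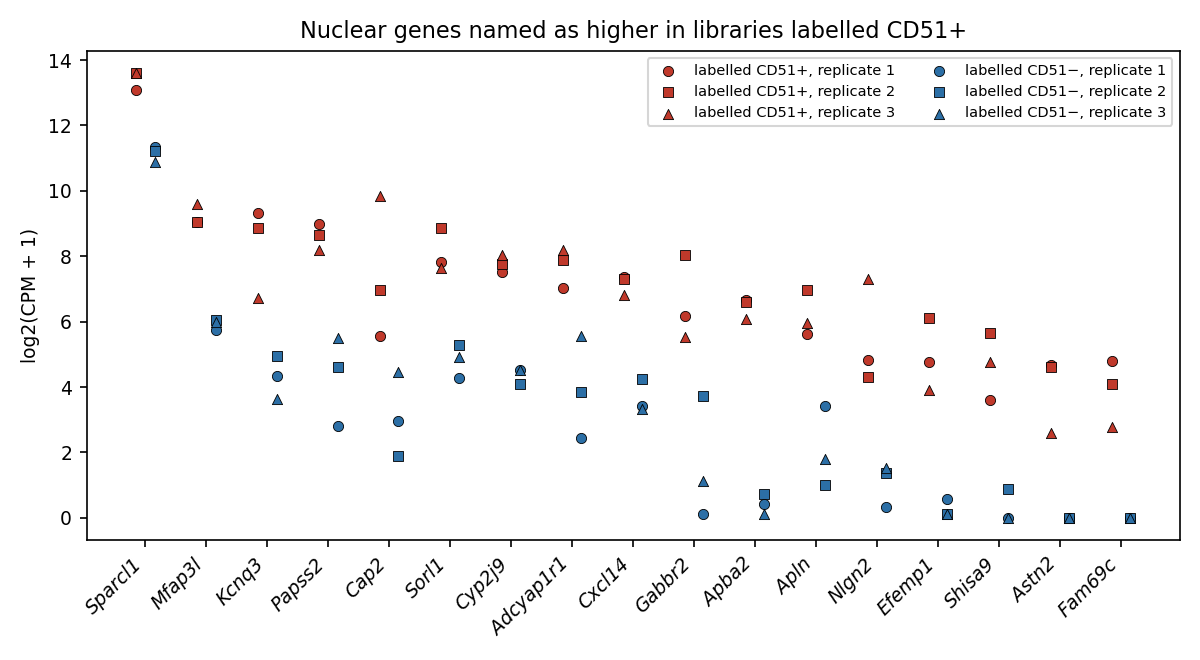
The 17 nuclear genes described that had the largest increases or smallest p are ordered by mean level along the x axis, with log2(CPM + 1) on the y axis and 1 point per hippocampal library (red for labelled CD51+, blue for labelled CD51−, shapes for replicates). The rule that chose these genes required that the classes not overlap, so the separation is no result; Astn2 and Fam69c are at 0 in all 3 CD51− libraries.

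Messenger RNAs of the mitochondrial genome were higher in CD51+ as a block. These genes encode the core subunits of the respiratory chain. All 13 lay higher without overlap (over all tested genes, 10.5% did), and 6 were called higher and none lower. The changes were close to one another, from 1.2 to 1.93 log2 units. The scaling factors of the libraries were 0.79 to 1.01 in CD51+ and 1.3 to 1.54 in CD51−. Scaled changes of CD51+ minus CD51− thus lie above those in raw shares of the counts. mt-Nd2, a subunit of complex I, was at 125141, 153487 and 163815 CPM in CD51+, against 41100.0, 48201 and 27072 CPM in CD51−. mt-Co1, of complex IV, was at 101042, 146795 and 148547 CPM against 35546, 46716 and 27051 CPM. The log2 fold changes were 1.93 ± 0.34 (SE) for mt-Nd2, 1.83 ± 0.33 for mt-Nd5, 1.86 ± 0.34 for mt-Cytb, 1.86 ± 0.35 for mt-Co1, 1.7 ± 0.35 for mt-Nd4 and 1.86 ± 0.43 for mt-Nd6 (edgeR adjusted p from 0.00172 to 0.0162). limma-voom ended the calls of mt-Nd2, mt-Nd5, mt-Cytb, mt-Co1 and mt-Nd4 (adjusted p 0.0522 to 0.961), and DESeq2 that of mt-Nd4; mt-Nd6 lost its call without CD51+ replicate 3 or CD51− replicate 3 (highest adjusted p 0.0952). Of 29 tested nuclear genes of the respiratory complexes none was called, with a median of 0.73 (0.41 without CD51+ replicate 2 and 0.37 without CD51+ replicate 3), and none had an unadjusted p under 0.05. Of 40 cytosolic ribosomal protein genes none was called either, with a median of -0.79 and 35 of negative sign. Of these 40, 13 were lower without overlap (over all tested genes, 16.7% were) and 1 had an unadjusted p under 0.05. DESeq2 and limma-voom called none in either list.

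Immediate early genes were lower in the libraries labelled CD51+. Of 24 tested, 14 were called lower and none higher, and 20 were lower without overlap (over all tested genes, 16.7% were). The median log2 fold change was -5.63, or -5.37 with genes that lacked a count in a group set to their bound. The list summed to 197, 259 and 564 CPM in CD51+ and to 7426, 10559 and 16275 CPM in CD51−. Egr1, a zinc finger factor of the first response, was at 54.6, 143 and 101 CPM in CD51+, against 2700, 3811 and 6317 CPM in CD51− (log2 fold change -5.42 ± 0.59 SE; edgeR adjusted p = 6.92e-06). Its relative Egr2 had no count in CD51+ and 57.1, 92.8 and 102 CPM in CD51−, at least 493-fold lower in CD51+ (adjusted p = 0.000202). Egr3 had 2 counts over the CD51+ libraries and 107, 117 and 226 CPM in CD51−, a pooled ratio of 1323 (95% counting interval 366 to 10925; adjusted p = 2.97e-05). All 3 genes were detected in every CD51− library; Egr2 and Egr3 were nearly silent in CD51+, and Egr1 was not.

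Genes of both partners of the AP-1 factor, Fos and Jun, were lower. Jun was at 29.6, 30.7 and 7.37 CPM in CD51+, against 643, 1094 and 1598 CPM in CD51− (log2 fold change -5.62 ± 0.82 SE; edgeR adjusted p = 0.000289). Fos was at 27.1, 9.66 and 78.7 CPM against 365, 697 and 651 CPM (-3.89 ± 0.96; adjusted p = 0.023), and Fosb at 0.918, 6.84 and 14.4 CPM against 208, 253 and 381 CPM (-5.24 ± 0.93; adjusted p = 0.00162). Atf3, a stress-induced relative, was at 0.459, 3.35 and 1 CPM against 805, 684 and 998 CPM (-8.96 ± 1.11; adjusted p = 3.96e-05). Klf4, a Krüppel-like factor, was at 0, 1.48 and 5.7 CPM against 208, 362 and 454 CPM (-7.13 ± 1.15; adjusted p = 0.000796). Klf2 had no count in CD51+ and 28.7, 109 and 48.4 CPM in CD51−, at least 359-fold lower (adjusted p = 0.00149). Zfp36, whose protein speeds the decay of cytokine mRNAs, was at 2.29, 22.5 and 14.2 CPM against 1080, 1759 and 3050 CPM (-7.23 ± 1.07; adjusted p = 0.000312). Btg2, Ier3, Ier5 and Junb were the other calls.

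Several members of the same list did not pass the test. Dusp1, the phosphatase that ends MAP kinase signals, was at 7.8, 3.09 and 157 CPM in CD51+, against 413, 401 and 803 CPM in CD51− (log2 fold change -3.27 ± 1.1 SE; edgeR adjusted p = 0.109). Klf6 was at 47.3, 7.25 and 97.2 CPM against 185, 440 and 600 CPM (adjusted p = 0.0739). Nr4a1 overlapped between the classes, at 0, 1.74 and 52.4 CPM against 51.7, 152 and 66.0 CPM (adjusted p = 0.355). CD51+ replicate 3 was the highest of the CD51+ libraries for these 3 genes and for Fos, Fosb and Klf4. Of the genes given above, Egr1, Jun, Atf3 and Zfp36 were instead highest in CD51+ replicate 2, and Jun was lowest in replicate 3. Replicate 3 also had the highest microglial sum of the CD51+ libraries (given below). Whether these levels are linked was not tested. Without CD51+ replicate 3, 15 immediate early genes were called lower, against 11 without CD51+ replicate 2 and 12 without CD51+ replicate 1 or CD51− replicate 3. Fos lost its call without CD51+ replicate 1 or 2 (highest edgeR adjusted p 0.0897), Junb without CD51+ replicate 2 or 3 or CD51− replicate 3 (0.0832), and Ier5 without any 1 CD51+ library or CD51− replicate 3 (0.111). limma-voom ended the calls of Egr1 (adjusted p = 0.143) and Zfp36 (0.0941).

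NF-kappa-B genes and the cytokines under this factor were lower as well. Of 18 tested, 15 were called lower and none higher, and 17 were lower without overlap (over all tested genes, 16.7% were). The median log2 fold change was -8.1, or -7.1 with genes that lacked a count set to their bound. The list summed to 134, 17.98 and 245 CPM in CD51+ and to 2528, 3964 and 5147 CPM in CD51−. Promoter letters are shown for 5 of the lower genes, to put the elements by which these factors are known to act beside the values. Each window shown holds a match, so the 5 do not stand for the lower genes as a whole. The windows are RefSeq promoters of build GRCm38.p6, the build also called mm10, from 250 bases before a start to 50 after it. Capitals mark matches on either strand to the kappa-B consensus, the CArG box bound by serum response factor, the AP-1 site TGANTCA, the cAMP response element TGACGTCA or the EGR site GCGGGGGCG.
Tnfaip3, chr10:19015361-19015660, minus strand: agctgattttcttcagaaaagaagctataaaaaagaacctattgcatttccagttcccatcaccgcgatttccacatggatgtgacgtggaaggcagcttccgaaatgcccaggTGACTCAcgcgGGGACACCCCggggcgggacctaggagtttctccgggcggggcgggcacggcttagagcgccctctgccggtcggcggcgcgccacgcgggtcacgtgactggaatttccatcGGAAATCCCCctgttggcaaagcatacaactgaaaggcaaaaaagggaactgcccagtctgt
Nfkbia, chr12:55492598-55492897, minus strand: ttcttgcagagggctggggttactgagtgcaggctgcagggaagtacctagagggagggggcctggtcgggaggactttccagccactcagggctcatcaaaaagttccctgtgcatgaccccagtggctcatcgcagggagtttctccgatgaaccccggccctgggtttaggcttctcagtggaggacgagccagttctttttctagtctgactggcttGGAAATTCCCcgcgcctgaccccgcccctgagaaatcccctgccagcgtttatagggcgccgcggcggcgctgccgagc
Cxcl2, chr5:90903649-90903948, plus strand: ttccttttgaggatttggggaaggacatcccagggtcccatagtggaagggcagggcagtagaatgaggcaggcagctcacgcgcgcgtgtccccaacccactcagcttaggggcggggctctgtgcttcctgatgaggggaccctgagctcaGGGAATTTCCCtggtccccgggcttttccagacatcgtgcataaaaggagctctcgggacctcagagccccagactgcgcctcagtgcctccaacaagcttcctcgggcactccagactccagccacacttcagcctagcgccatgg
Zfp36, chr7:28379179-28379478, minus strand: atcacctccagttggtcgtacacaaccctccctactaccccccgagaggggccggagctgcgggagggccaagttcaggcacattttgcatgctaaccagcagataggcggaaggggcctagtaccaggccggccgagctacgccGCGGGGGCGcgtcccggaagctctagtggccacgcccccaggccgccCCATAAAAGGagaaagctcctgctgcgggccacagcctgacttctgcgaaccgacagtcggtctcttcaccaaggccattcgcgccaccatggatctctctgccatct
Egr2, chr10:67537620-67537919, plus strand: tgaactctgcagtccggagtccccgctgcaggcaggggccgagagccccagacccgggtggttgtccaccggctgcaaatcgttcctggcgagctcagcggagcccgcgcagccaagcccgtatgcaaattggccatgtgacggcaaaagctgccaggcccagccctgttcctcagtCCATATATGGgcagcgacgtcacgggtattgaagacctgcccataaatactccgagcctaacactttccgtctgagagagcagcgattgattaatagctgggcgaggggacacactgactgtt
The first of 2 Tnfaip3 windows held an AP-1 site at position 115 and kappa-B matches at 126 and 239, counted from the 5′ end. The window of Nfkbia held 1 kappa-B match at 222, and that of Cxcl2 overlapping kappa-B matches at 154 and 155. That of Zfp36 held an EGR site at 146 and a CArG box at 193, and the fourth of 5 Egr2 windows a CArG box at 178.

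Over all promoters, the windows of 8993 tested genes were found, 11650 in number. The kappa-B consensus was in 10.5% of them, in 15.9% of the 309 windows of lower genes and in 11.1% of the 81 windows of higher genes. The windows of the called NF-kappa-B and cytokine genes held it in 5 of 16, and those of the called immediate early genes in 4 of 16. The CArG box was in 1.26% of the tested windows, in 2.91% of those of lower genes and in none of those of higher genes. It was in 5 of the 16 immediate early windows, 4 of them windows of Egr2, some of which overlap and share the site. The AP-1 site was in 4.93% of tested windows, 8.09% of lower and 4.94% of higher ones, the cAMP response element in 3.02%, 2.27% and 1.23%, and the EGR site in 5.67%, 6.47% and 6.17%. A match describes letters in the window and says nothing about binding in these cells.

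Tnfaip3, which encodes the deubiquitinase A20 that ends NF-kappa-B signals, was at 0.229, 1.07 and 22.3 CPM in CD51+, against 481, 789 and 1069 CPM in CD51− (log2 fold change -6.63 ± 1.07 SE; edgeR adjusted p = 0.000796). Nfkbia, the inhibitor I-kappa-B alpha, was at 2.29, 6.57 and 0.335 CPM against 46.2, 105 and 99.9 CPM (-4.75 ± 1.28; adjusted p = 0.04). Nfkbiz, a nuclear relative, was at 4.82, 1.88 and 4.02 CPM against 370, 531 and 615 CPM (-7.15 ± 0.76; adjusted p = 6.92e-06). Another relative, Nfkbid, had no count in CD51+ and 9.28, 177 and 104 CPM in CD51−, at least 553-fold lower (adjusted p = 0.00119). Rel, the subunit c-Rel itself, was at 0, 0.134 and 0.838 CPM against 260, 213 and 402 CPM (-9.71 ± 1.21; adjusted p = 4.06e-05). The feedback inhibitors and the factor were thus low together in CD51+.

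Chemokine and interleukin genes were part of the lower set. Ccl3 (chr11:83647844-83649355, mm10, minus strand) was at 0, 0.671 and 0.838 CPM in CD51+, against 411, 634 and 669 CPM in CD51− (log2 fold change -10.04 ± 0.99 SE; edgeR adjusted p = 2.19e-06). Its neighbour Ccl4 (chr11:83662584-83664683, plus strand) had a single count over the CD51+ libraries and 161, 242 and 530 CPM in CD51−, a pooled ratio of 5454 (95% counting interval 979 to 215439; adjusted p = 2.07e-06). Cxcl2, which attracts neutrophils, also had a single count in CD51+ and 29.7, 90.1 and 54.2 CPM in CD51−, a pooled ratio of 1010 (interval 181 to 39926; adjusted p = 0.0081). Il1a was at 5.74, 0 and 0.168 CPM against 473, 456 and 1103 CPM (-8.48 ± 1.35; adjusted p = 0.000713), and Il1b at 4.82, 0.134 and 0 CPM against 128, 32.6 and 135 CPM (-5.93 ± 1.47; adjusted p = 0.0238). Tnf had 1 count in CD51+ and 18.6, 122 and 88.5 CPM in CD51−, a pooled ratio of 1316 (interval 236 to 52015; adjusted p = 0.00304). Every one of these cytokine genes was detected in all 3 CD51− libraries.

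Casp4 and Pycard, described next, are outside the list, as is Rel above. Casp4, an inflammatory caspase, was at 0.459, 0.403 and 0.335 CPM in CD51+, against 204, 554 and 515 CPM in CD51− (log2 fold change -10.01 ± 1.19 SE; edgeR adjusted p = 2.97e-05). Pycard, the adaptor ASC, had no count in CD51+ and 47.2, 45.3 and 194 CPM in CD51−, at least 559-fold lower (adjusted p = 0.00238). Nlrp3, the sensor, was at 16.8, 0.403 and 7.04 CPM against 159, 211 and 191 CPM (-4.54 ± 1.11; adjusted p = 0.022). Icam1, Ccl2, Ccl12 and Zc3h12a completed the calls of the list, and Ccrl2, a chemokine receptor outside it, was at 0, 0.268 and 0.503 CPM against 55.7, 307 and 166 CPM (-9.27 ± 1.11; adjusted p = 3.02e-05). Csf1, the growth factor of microglia, was not called and overlapped, at 98.9, 4.7 and 207 CPM against 97.3, 252 and 155 CPM (adjusted p = 0.762). Without CD51+ replicate 2 there were 8 calls in the list, without CD51+ replicate 3 there were 10, and without any other single library 13 to 15. Nfkbia lost its call with upper-quartile scaling and without any 1 CD51+ library or CD51− replicate 2 or 3 (highest edgeR adjusted p 0.141), Il1b and Nlrp3 without CD51+ replicate 2 or 3 (0.0903 and 0.0755), Cxcl2 and Icam1 without CD51+ replicate 2 (0.0538), Ccl12 without any 1 CD51+ library or CD51− replicate 3 (0.117), and Zc3h12a without CD51+ replicate 2 or 3 and under 4 other alternatives, DESeq2 and limma-voom among them (0.075).

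**Figure D3:**
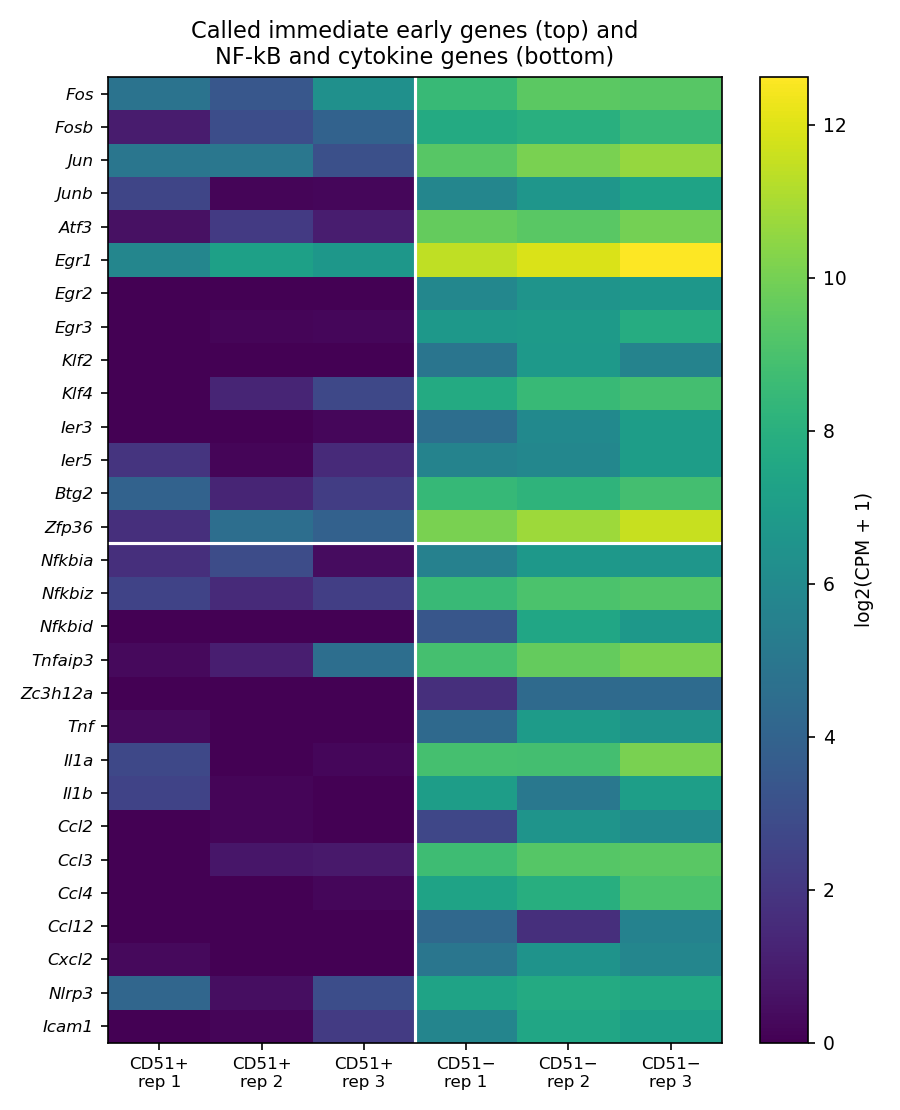
Rows are the 14 called immediate early genes (above the white line) and the 15 called NF-kappa-B and cytokine genes (below it), columns the 3 libraries labelled CD51+ and the 3 labelled CD51−, and colour is log2(CPM + 1). Egr1 is the brightest row, at 2700 to 6317 CPM in CD51−, and Egr2, Klf2 and Nfkbid are at 0 in all 3 CD51+ libraries.

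Heat shock, antigen presentation and TGF-beta receptor genes showed fewer calls, all lower. The paired stress-inducible chaperone genes were called of 13 heat shock genes (median log2 fold change -2.03): Hspa1b had no count in CD51+ and 33.7, 81.5 and 80.8 CPM in CD51−, at least 380-fold lower (edgeR adjusted p = 0.00162). Hspa1a had 2 counts in CD51+ and 28.3, 219 and 126 CPM in CD51−, a pooled ratio of 1071 (95% counting interval 296 to 8847; adjusted p = 0.000207). These 2 copies are nearly identical, and reads can be split between them. Constitutive Hspa8 was at 265, 288 and 532 CPM against 512, 557 and 691 CPM and was not called (adjusted p = 0.527). Of 9 interferon and class I genes, H2-K1 (2.75, 6.57 and 22.8 against 120, 250 and 526 CPM) and H2-D1 (0, 0.268 and 15.6 against 69.7, 134 and 213 CPM) were called lower (-4.8 ± 0.99 and -4.71 ± 1.31 SE; edgeR adjusted p = 0.00692 and 0.0475). These class I genes belong to a family of close copies, so their counts are uncertain. limma-voom ended the call of H2-K1 (adjusted p = 0.0759), and 6 alternatives that of H2-D1, among them leaving out CD51+ replicate 1 or 2 or CD51− replicate 2 or 3.

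Tgfbr1, the type I receptor for TGF-beta (chr4:47353222-47414931, mm10, plus strand), was at 7.34, 5.1 and 9.72 CPM in CD51+, against 408, 516 and 539 CPM in CD51−. Each class was tight, and the change was -6.04 ± 0.74 log2 units (SE; edgeR adjusted p = 3.31e-05), called under all 18 alternatives. Tgfbr2, the type II receptor, was at 0.229, 0.134 and 3.69 CPM against 78.6, 42.3 and 182 CPM (-6.2 ± 1.69; adjusted p = 0.0429), and lost its call without CD51+ replicate 1 or 2, without CD51− replicate 3 and with upper-quartile scaling (highest adjusted p 0.149). The ligand gene Tgfb1 was at 0.459, 0.805 and 7.71 CPM against 67.2, 34.9 and 101 CPM and was not called (adjusted p = 0.0707). Tgfb2, the ligand typical of astrocytes, overlapped at 60.6, 39.4 and 66.3 CPM against 44.0, 33.7 and 4.44 CPM (adjusted p = 0.763). The 2 receptors were the calls among 16 tested genes of the pathway and of alpha-v ligands, with a median of -2.7, or -1.77 with a gene that lacked a count set to its bound.

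Markers of microglia and of macrophages at the brain's borders were also lower in the libraries labelled CD51+. The 18 microglial markers summed to 219, 461 and 2204 CPM in CD51+, against 6664, 9668 and 10509 CPM in CD51−. Without overlap, 16 were lower (over all tested genes, 16.7% were). Of the 18, 7 were called lower and none higher, against 12 lower under DESeq2 and 12 under limma-voom. The median log2 fold change was -3.35, or -5.27 without CD51+ replicate 3. P2ry12, the purinergic receptor of resting microglia, was at 90.8, 35.8 and 406 CPM in CD51+, against 1150, 1834 and 1815 CPM in CD51− (-3.17 ± 0.67 SE; edgeR adjusted p = 0.00817). Csf1r, the receptor on which microglia depend, was at 43.1, 84.4 and 583 CPM against 1692, 2364 and 2559 CPM (-3.22 ± 0.7; adjusted p = 0.0104). Tyrobp, a signalling adaptor, was at 8.95, 3.49 and 14.6 CPM against 214, 259 and 253 CPM (-4.75 ± 0.8; adjusted p = 0.00106). C1qb, Ctss and Fcrls were also called. No microglial marker was at 0 in all CD51+ libraries, and CD51+ replicate 3 was the highest of the CD51+ libraries for 17 of the 18.

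The border macrophage and leukocyte list separated further. It summed to 18.6, 1.74 and 21.3 CPM in CD51+ and to 714, 741 and 792 CPM in CD51−. All 8 tested members were lower without overlap (over all tested genes, 16.7% were) and 5 were called (8 under limma-voom). The median log2 fold change was -8.16, or -6.96 with genes that lacked a count set to their bound. Mrc1, the mannose receptor of perivascular macrophages, was at 18.4, 1.61 and 3.35 CPM in CD51+, against 164, 232 and 210 CPM in CD51− (-4.71 ± 1.07 SE; edgeR adjusted p = 0.0138). F13a1 and Ms4a7 were the other calls, and Cd163, Lyve1 and F13a1 had no count in CD51+. Cd163, a haemoglobin scavenger receptor, was at 34.4, 19.2 and 23.0 CPM in CD51−, at least 153-fold lower in CD51+ (adjusted p = 0.0305). Ptprc, the leukocyte antigen CD45, was at 0.229, 0.134 and 15.1 CPM against 371, 226 and 394 CPM (-5.99 ± 1.53; adjusted p = 0.0293). Stab1, a scavenger receptor, was the 1 gene called of 12 phagocytosis genes, at 1.15, 0 and 0.67 CPM against 67.6, 108 and 137 CPM (-7.46 ± 1.16; adjusted p = 0.000504).

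How far the lower immediate early, NF-kappa-B, heat shock, class I and Tgfbr1 levels rest on the microglial and macrophage RNA of the libraries labelled CD51− was not tested. Leaving out CD51+ replicate 3, the CD51+ library with the most microglial RNA, raised the microglial calls from 7 to 13, and leaving out CD51+ replicate 1 or replicate 2 left 3. For the border macrophage list, 1 call was left without CD51+ replicate 1, none without replicate 2, 2 without replicate 3 and 3 without CD51− replicate 2. DESeq2 gave no adjusted p for P2ry12, which was called under the other 17 alternatives. Ctss lost its call without CD51+ replicate 1 or 2, and C1qb and Fcrls without those or CD51− replicate 2. Fcrls also lost it with upper-quartile scaling, robust dispersion or the hippocampal libraries alone. Mrc1 lost its call without CD51+ replicate 2 or 3 or CD51− replicate 2, Ptprc with robust dispersion or without CD51+ replicate 1 or 2, Cd163 without any 1 CD51+ library or CD51− replicate 1, and Ms4a7 without any 1 CD51+ library or CD51− replicate 3 (highest edgeR adjusted p 0.165).

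**Figure D4:**
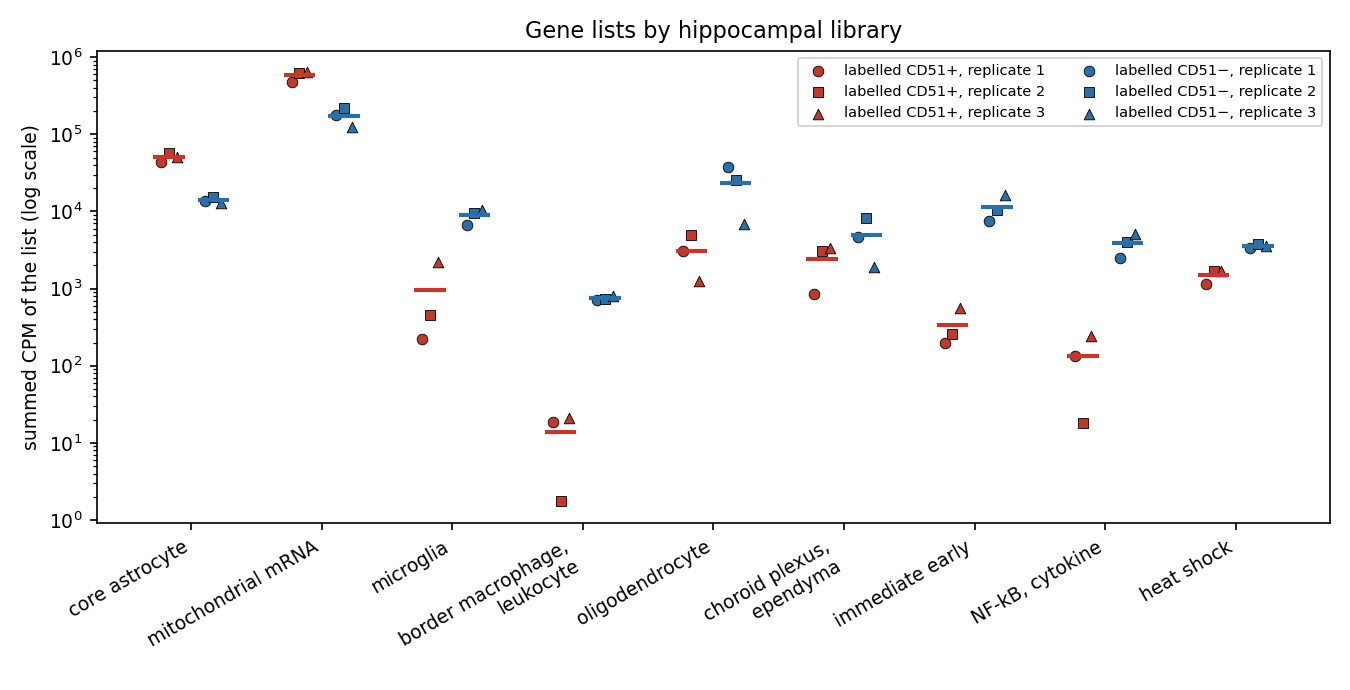
Each group on the x axis is a gene list, and the y axis is its summed CPM in each hippocampal library on a log scale; red marks libraries labelled CD51+, blue those labelled CD51−, shapes the replicates and bars the group means. Astrocyte and mitochondrial sums lie higher in CD51+, the choroid plexus and ependyma sums overlap, and the other 6 lists lie lower in CD51+.

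The next lower genes are among those with the largest changes. Csf3r, the receptor for the granulocyte growth factor, had no count in CD51+ and 30.3, 77.2 and 197 CPM in CD51−, at least 588-fold lower (edgeR adjusted p = 0.001). Runx1, a transcription factor of blood cell development, had none against 55.4, 50.5 and 108 CPM, at least 420-fold lower (adjusted p = 0.00051). Vav1, an exchange factor of blood cell signalling, was even between the CD51− libraries, at 57.1, 52.7 and 57.1 CPM, at least 330-fold lower in CD51+ (adjusted p = 0.00123). Plau, the urokinase protease, was just as even at 88.5, 84.4 and 81.1 CPM, at least 503-fold lower (adjusted p = 0.000504). Il7r, the interleukin-7 receptor, was at 19.9, 23.96 and 140 CPM and at least 357-fold lower (adjusted p = 0.00489). Abi3, an actin regulator of microglia, was at 14.8, 69.3 and 99.6 CPM and at least 353-fold lower (adjusted p = 0.00552). Dennd1c, a Rab exchange factor, was at 29.2, 130 and 26.8 CPM and at least 358-fold lower (adjusted p = 0.00666), and Baz1a, a chromatin remodelling subunit, at 10.0, 85.8 and 156 CPM and at least 483-fold lower (adjusted p = 0.0057). F13a1, the coagulation factor XIII A chain of macrophages, was at 25.7, 82.2 and 45.6 CPM and at least 297-fold lower (adjusted p = 0.0244). All 9 had no count in any CD51+ library. Dennd1c lost its call without CD51− replicate 2 (adjusted p = 0.0519), and F13a1 without any 1 CD51+ library or CD51− replicate 2 (highest adjusted p 0.0863).

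Myelin RNA differed between the classes and between replicates. Mbp, the myelin basic protein gene, was at 1857, 3248 and 756 CPM in CD51+, against 27966, 20907 and 5399 CPM in CD51− (log2 fold change -3.21 ± 0.53 SE; edgeR adjusted p = 0.001). Mobp, another myelin protein gene, was at 454, 940 and 153 CPM against 6560, 3269 and 1042 CPM (-2.81 ± 0.64; adjusted p = 0.0131). They were the 2 calls of 14 oligodendrocyte markers, of which 3 were lower without overlap (over all tested genes, 16.7% were). The median of the list was -1.64, and without CD51− replicate 1 it turned to 0.65 with 1 call; limma-voom gave -0.47 with no call. The sum of the list ran from 38086 CPM in CD51− replicate 1 to 6918 CPM in CD51− replicate 3, and those libraries were also at opposite ends of the second principal component of the 6 libraries (-139 and 139). limma-voom ended both calls (adjusted p = 0.961 for Mbp and 0.339 for Mobp), and Mobp lost its call without CD51− replicate 1.

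Other cell types were present at low or uneven levels and gave no calls. Ttr, the transthyretin gene of the choroid plexus, was at 444, 1969 and 1945 CPM in CD51+, against 2584, 5381 and 1215 CPM in CD51−, with overlap (edgeR adjusted p = 0.606). The choroid plexus and ependyma markers, 10 tested, summed to 862 to 3332 CPM in CD51+, against 1903 to 8224 CPM in CD51−. The neuronal markers summed to 307, 454 and 403 CPM in CD51+, against 176, 221 and 42.1 CPM in CD51−, without overlap. Of 8 tested, 4 had a positive change and 4 a negative one, from -8.52 to 7.88 log2 units. Their median was -1.21, and -1.39 to 1.53 under the alternatives, so the sum does not stand for the members. Rbfox3, which encodes the neuronal nuclear antigen, had no count in CD51+. Markers of hippocampal principal neurons summed to 13.1 to 49.1 CPM and 36.6 to 96.3 CPM. Endothelial markers summed to 3.35 to 54.4 CPM and 14.6 to 66.5 CPM, and pericyte markers to 32.2 to 57.8 CPM and 7.97 to 231 CPM, the latter led by Rgs5 at 230 CPM in CD51− replicate 1. Of 15 genes of dentate stem cells and neuroblasts none was called (median log2 fold change -2.37, or -1.57 without CD51− replicate 1), and Dcx, Eomes and Mki67 had no count in CD51+. Over these and the precursor and fibroblast lists, 53 genes in all, edgeR called none, 18 had an unadjusted p under 0.05, DESeq2 called 7 and limma-voom 5. The share of all tested genes with an unadjusted p under 0.05 was not counted.

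Other astrocyte programmes gave few calls. No gene was called among 20 of cholesterol synthesis (median log2 fold change 1.19), 18 of lipoproteins and fatty acids (1.02), 11 of calcium signalling (1.33), 11 of serine, glycine and folate metabolism (1.66), 8 of hedgehog signalling (2.1), 10 of Notch signalling (1.02), 13 of BMP signalling (1.26), 13 astrocyte fate factors (1.39) or 15 telencephalic patterning factors (1.14). The Notch median was 3.06 without CD51+ replicate 1, 0.04 without replicate 2, 3.05 without replicate 3, 2.04 without CD51− replicate 1, 2.16 without CD51− replicate 3, 2.52 without cortical CD51+ replicate 3 and -0.03 with the hippocampal libraries alone, and the hedgehog median 3.35 without CD51− replicate 1. Over these 9 lists edgeR called none of 116 genes, 26 had an unadjusted p under 0.05, and DESeq2 called 10 and limma-voom 15. For the unadjusted p, the share over all tested genes was again not counted. Apoe, the main lipoprotein of astrocytes, was at 2001, 2789 and 2773 CPM in CD51+, against 734, 1205 and 560 CPM in CD51− (edgeR adjusted p = 0.0819). Of 12 reactive astrocyte genes, Srgn, a proteoglycan gene that leukocytes also transcribe, was called lower, with no count in CD51+ and 19.9, 13 and 59.9 CPM in CD51−, at least 182-fold lower (adjusted p = 0.0184, lost without any 1 CD51+ library or CD51− replicate 3), and the median was -1.71, or -4.48 without CD51+ replicate 3, -3.24 without CD51− replicate 3 and -0.36 with the hippocampal libraries alone. Neat1, the scaffold RNA of paraspeckles, was the 1 call of 10 long noncoding RNAs, at 102, 153 and 99.8 CPM against 544, 768 and 1454 CPM (-2.96 ± 0.57 SE; adjusted p = 0.00315). Xist, the X-inactivation RNA, was present in all 6 libraries and lower in CD51+, at 767, 461 and 375 CPM against 1322, 1802 and 2383 CPM (-1.78 ± 0.49; adjusted p = 0.044), a call that 8 of 18 alternatives ended (highest adjusted p 0.183).

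Per kilobase of exon, Sparcl1, Slc1a2, Cst3 and Aldoc were the most abundant nuclear protein-coding genes of the libraries labelled CD51+, at 3811, 2502, 2104 and 1510 CPM per kilobase. In the libraries labelled CD51− the order began with Ttr (2580 CPM per kilobase), Mbp (2136), B2m (1430) and Cst3 (1372), followed by Egr1 (954). The first 20 of CD51+ held 13 genes called higher and none called lower. Those of CD51− held 9 called lower and 3 called higher.

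Set beside the cortical libraries, the hippocampal difference went in the same direction at nearly all of its calls. Of the 418 genes, 412 had the same sign in cortex and 343 (82.1%) were called there too. These 343 are 24% of the 1428 cortical calls, which were made over the same 12613 tested genes. The share of all tested genes with the same sign in both regions was not counted. Among the 75 hippocampal calls that were not called in cortex, 21 were higher and 54 lower. The test of the difference between regions itself gave no gene in edgeR at an adjusted p under 0.05 (smallest 0.139; 1583 genes had an unadjusted p under 0.05) and none in limma-voom, while DESeq2 gave 522. Apba2 is an example of a call that was not made in cortex (log2 fold change 7.88 in hippocampus and 2.22 in cortex), with an unadjusted p of 0.00232 and an adjusted p of 0.164 for the difference. Csf3r, with no count in hippocampal CD51+, was at 2.35, 95.5 and 2.84 CPM in the cortical CD51+ libraries (adjusted p = 0.139 for the difference). Psme2, a proteasome activator subunit and 1 of the 6 genes of opposite sign, rested on 1 library: it was at 1416 CPM in hippocampal CD51+ replicate 1 and at 15.2 CPM or less in the other hippocampal libraries. Without that library its call ended, as it did without CD51− replicate 2, under DESeq2 and limma-voom and with the replicate number as a block (highest adjusted p 0.979). It was named after its values were seen.

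**Figure D5:**
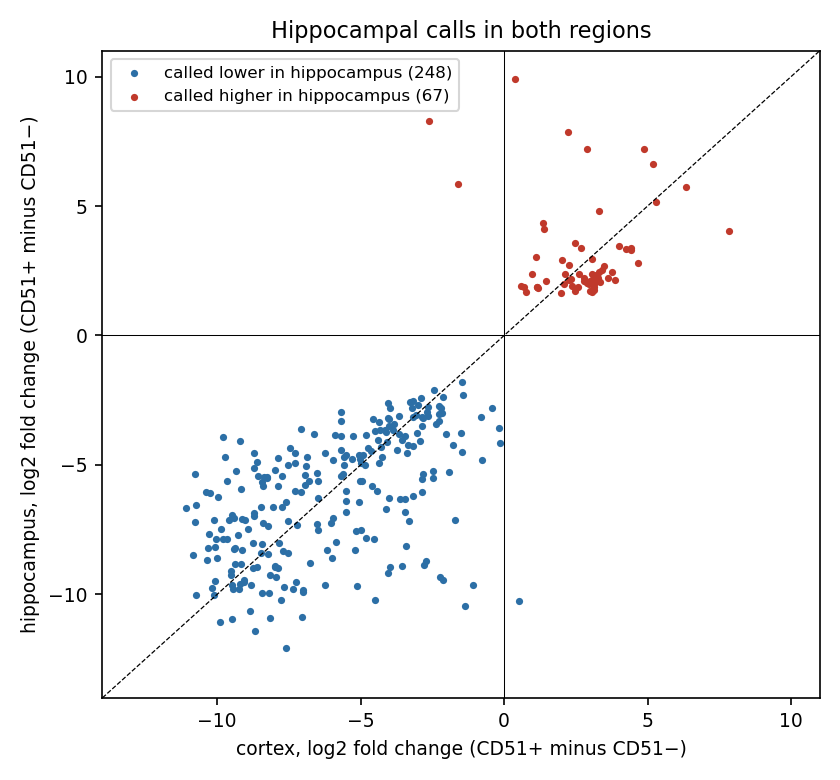
Each point is a gene called in hippocampus, with the fitted log2 fold change of libraries labelled CD51+ minus CD51− in cortex (x axis) and in hippocampus (y axis); 103 calls with no count in a group of either region are left out, and the dashed line marks equal changes. Of the points drawn, 248 were called lower and 67 higher in hippocampus, and few lie in the quadrants of opposite sign.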

How the data were processed

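RNA from sorted hippocampal cells was sequenced in 3 libraries labelled CD51+ and 3 labelled CD51−. The deposited values are whole-number counts per gene, made by the authors with featureCounts 2.0.4 on GENCODE vM25 per the file headers; STAR, DESeq2 1.40.2 and mm10 are named in the submitters' processing notes. From these counts, genes were filtered with filterByExpr (minimum count 10, total 15), libraries scaled by TMM, and 1 model with 4 groups fitted to all 12 libraries with edgeR 4.0.16 (glmQLFit, glmQLFTest; limma 3.58.1, R 4.3.3), so that cortex and hippocampus share the spread estimate (common dispersion 1.64). Adjusted p-values are Benjamini-Hochberg over 12613 genes and CPM uses the scaled library sizes. DESeq2 1.42.0 and limma-voom were alternatives, with other scalings, filters, the replicate number as a block and single libraries left out.

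Tested on simulated data of 12613 genes, 7.41% of the calls were false. Gene lists and members were chosen with earlier results of these data known. Genes named were Itgav, the 15 of largest change and 10 of smallest p per direction (mean of at least 10 CPM and at least 5 CPM in each library of the higher group, no overlap), up to 4 of smallest p and the first 2 in each list, and up to 8 per direction for the difference between regions; from these a selection is described, and list members named beyond them were chosen after their values were seen. A gene with no count in a group has a bound from a floor of 3 counts over the group, and 1 to 3 counts a ratio with a 95% exact interval; both cover counting error only, since read pairs without molecular identifiers are not independent molecules. Some results are not reported here.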

Additional observations from a re-analysis of the deposited data

How the results depend on the processing

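The 418 calls became 1429 with DESeq2, 885 with limma-voom, 636 with no filter on low counts and 158 at an adjusted p under 0.01, and ranged from 198 to 481 with 1 library left out. The difference between regions, 0 genes in edgeR, gave 522 with DESeq2, 146 with no filter, 1 with robust dispersion, 7 with the replicate block over all libraries and 0 to 3 with 1 library left out. The causes were not tested. Upper-quartile scaling moved the median of all genes up by 0.22 log2 units and called 389 genes, 103 of them higher. Itgav changed sign with limma-voom (0.06), upper-quartile scaling (0.20) and the replicate block over all (0.05) or only hippocampal libraries (0.04), and ranged from -0.31 to 0.36 with 1 library left out.

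The libraries could not show whether replicate numbers pair the samples. Deviations of same-numbered libraries correlated at -4.82e-05, 0.0168 and 0.0118, and those of different numbers at -0.0265 to 0.0142. CD51+ replicate 1 correlated best with another number. All these correlations were weak, so they cannot decide the question. With the number as a replicate block, 591 genes were called over all libraries, against 418 without it. Over the hippocampal libraries alone 780 were called, against 601 without it. In these blocked fits, 15 and 16 of the 18 microglial markers were called lower. Of the 20 core astrocyte markers, 11 and 14 were called higher. Of the 102 called genes named, 39 were called under all 18 alternatives, 63 were not called under at least 1, and none changed sign. A gene without an adjusted p, such as P2ry12 under DESeq2, was counted as not called. Of the 20 uncalled genes named, 13 were called under at least 1, Aqp4 and Klf6 under 8 each, Apoe under 7, and Dusp1 and Tgfb1 under 6 each.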
